A study of Mus musculus with 6 samples.

Results

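Heat shock proteins and their J-domain partners are the chaperones that fold, refold and dispose of proteins. This account follows the 67 genes of that kind measured in tibialis anterior of mice, a shin muscle made mainly of fast fibres. Members were taken by symbol. They are the Hspa, Hspb, Hspd, Hspe, Hsph and Hsp90 genes and the Dnaja, Dnajb and Dnajc genes, each represented by the probe set naming that gene alone with the highest mean. They make up 67 of the 22180 genes in the table, 26 with an Hsp symbol and 41 with a Dnaj symbol. The rule also admits Hspbp1, a nucleotide exchange factor named for binding HSP70, which is kept apart from the small heat shock proteins here. Dnaja1, Dnajb8, Dnajc17 and Hspb2 have probe sets only together with another gene and were not analysed as members. Hsp90ab1 and Hsf1 were not analysed here.

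All 6 samples came from male C57Bl/6 mice killed at 18 weeks of age, and expression was measured on Affymetrix whole-transcript arrays. The 3 sham samples are from mice sham-operated at 11 weeks of age and carry the diet label fasted. The 3 castrated samples are from mice castrated at 11 weeks, which removes the main source of circulating androgen, and carry the diet label refed. The series design speaks of mice kept fasted and mice given food for 30 minutes, after an overnight fast and with 4 further hours without food in both cases, while the protocol attached to each sample gives the meal to all mice. Surgery and diet label split the samples identically and cannot be told apart, so every difference below is castrated and labelled refed against sham and labelled fasted. In whole muscle, fewer cells of a type and less RNA per cell cannot be told apart either.

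HSP70 proteins bind unfolded stretches of protein in a cycle driven by ATP. J-domain proteins, the Dnaj genes, deliver clients and start ATP hydrolysis, and exchange factors end the cycle. HSP90 matures clients that are already partly folded, the chaperonin encloses proteins inside mitochondria, and small heat shock proteins hold unfolded proteins without using ATP. The heat shock factor HSF1 induces the cytosolic set, while the endoplasmic reticulum has its own set, induced by the unfolded protein response. Muscle is rich in small heat shock proteins that protect the sarcomere.

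The libraries matched their tissue label, with 12 of 12 skeletal fibre markers at mean log2 values of 12.07 to 13.56 and 6 testis genes at 3.58 to 5.08. Arrays correlated at 0.9904 to 0.9924 within and 0.9895 to 0.9916 between groups. Marker lists of other cells were uneven between samples. With each gene centred on its own mean, the median of 10 slow fibre genes was 0.74 in castrated sample 1, while the other 5 samples lay between −0.28 and −0.064. The slow myosin Myh7 read 7.41 there, with 5.11 to 5.40 elsewhere. Between groups, 9 of 10 slow fibre genes had higher means in castrated samples, with a median difference of 0.31. The median of 13 immediate early genes, the fast stress and activity responders, was 0.31 in sham sample 1 and between −0.16 and 0.068 elsewhere. Of these 13 genes, 11 had lower means in castrated samples, where 51.5% of all genes did, and the median difference was −0.25. Medians of tendon markers spanned −0.58 to 0.15 over sham and −0.10 to 0.47 over castrated samples, with 9 of 10 genes higher in castrated samples. Those of adipocytes spanned −0.21 to −0.0022 and 0.035 to 0.15 in the same order, with 8 of 9 genes higher. Macrophage medians spanned −0.072 to 0.30 and −0.17 to 0.14, with 8 of 10 genes lower. Endothelial medians spanned −0.074 to 0.097 and −0.045 to 0.046, and fibro-adipogenic medians −0.14 to 0.24 and −0.25 to 0.071. Schwann cell medians spanned −0.11 to 0.025 and −0.056 to 0.20, and satellite cell medians −0.034 to −0.018 and −0.076 to 0.15. Of 7 red cell genes, only Slc4a1 had a probe set of its own. What part such differences have in the values below was not tested.

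No chaperone gene passed the threshold between castrated and sham muscle. In limma fitted over all 22180 genes with Benjamini-Hochberg adjustment, 0 of 67 members had an adjusted p under 0.05, against 3 of all genes (0.0135%), and the smallest adjusted p of a member was 0.685. At an unadjusted p under 0.05 there was 1 member, Dnajc22, where the share over all genes was 7.13%, made up of 3.62% higher and 3.51% lower in castrated samples. Groups did not overlap for 9 members, or 13.4%, which lies near the 12.8% of all genes. Of these 9, 3 were higher and 6 lower in castrated samples, where the shares over all genes were 5.73% and 7.02%. The median log2 difference of the members was −0.023, and 0.0022 after quantile normalization, beside −0.0056 for all genes.

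The data bound the signal of most members closely. The 95% interval of the difference lay within 0.5 on the log2 scale, a 1.41-fold change, for 59 of 67 members. The intervals of the other 8 reached further, those of Hspa1a, Hspa1b, Hsp90aa1, Hspb1, Dnajb1, Dnajc5g, Dnajc6 and Dnajc22. The estimated difference itself was under 0.2 in size for 61 members. The forest plot of all members shows the narrow intervals around 0 and the few wide ones.

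**Figure D1:**
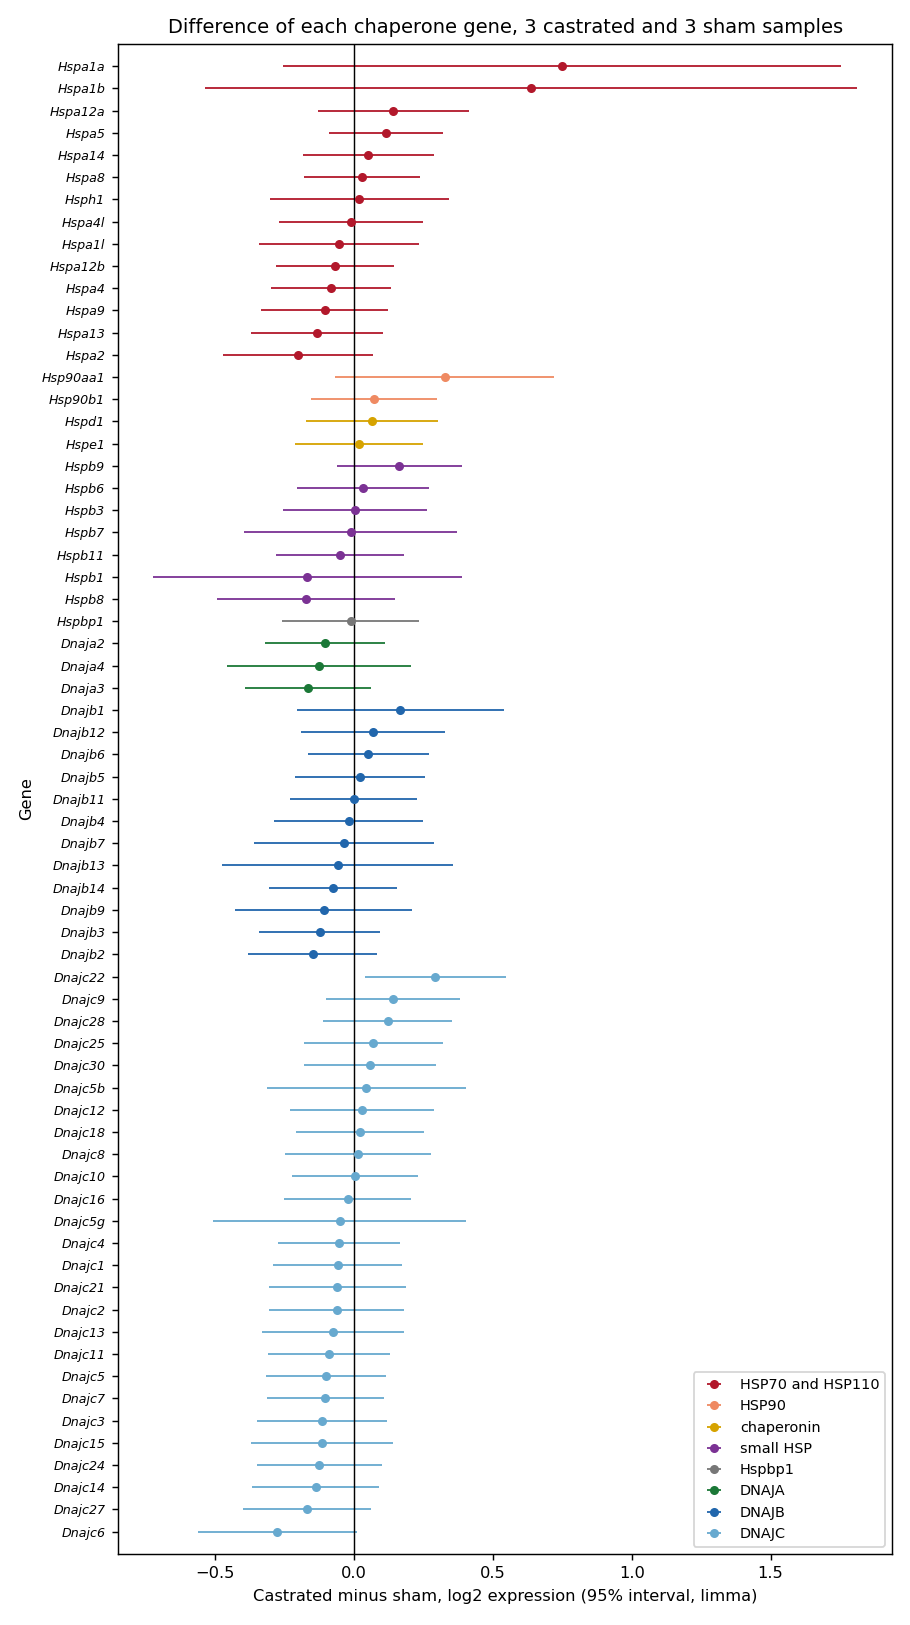
Castrated minus sham difference in log2 expression (x axis) for each of the 67 chaperone genes (y axis), coloured by family, with points for limma estimates and bars for their 95% intervals over 3 samples per group. Nearly all intervals cross 0, that of Dnajc22 does not, and the widest are those of Hspa1a and Hspa1b.

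The HSP70 family, with its larger relative HSP110 (Hsph1), had 14 measured genes, 7 higher and 7 lower in castrated samples. Its median difference was 0.0038, and −0.015 with arrays centred on their medians. Hspa1a and Hspa1b, the stress-inducible cytosolic HSP70 genes that are kept low in most unstressed cells, had the largest differences. Hspa1a (Entrez 193740) stood at log2 values of 9.54, 10.76 and 10.41 in sham samples 1 to 3 and at 10.06, 11.92 and 10.97 in castrated samples 1 to 3. Sham sample 1 was lowest and castrated sample 2 highest, 5.24-fold apart, and the groups overlap because castrated sample 1 lay below sham samples 2 and 3. The mean was 10.24 ± 0.63 in sham and 10.99 ± 0.93 in castrated samples (SD, n = 3 each). The difference was 0.75 (standard error 0.44, 95% interval −0.26 to 1.75, limma adjusted p = 0.774). Leaving out castrated sample 2 gave 0.28 and leaving out sham sample 1 gave 0.40. With castrated sample 1 left out it was 1.21.

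Hspa1b (Entrez 15511) gave the same picture on its own probe set. It stood at 8.65, 9.999 and 9.73 in sham samples and at 8.98, 11.20 and 10.11 in castrated samples, again with castrated sample 1 inside the sham range. The difference was 0.64 (standard error 0.52, limma adjusted p = 0.832), and leaving out castrated sample 2, sham sample 1 or castrated sample 1 gave 0.088, 0.23 or 1.20. A further probe set that names both genes read 5.70, 6.35 and 6.40 in sham and 5.80, 8.12 and 6.74 in castrated samples, with the same lowest and highest samples. The coding sequences of Hspa1a and Hspa1b are close to identical, so signal may cross between their probe sets and they do not count as independent readings. Their upstream sequences are alike too. In the RefSeq promoter windows of build GRCm38.p6, 247 of the 250 bases before the start are identical, as are 149 of the last 150. Those 150 bases are shown because these genes shared their order of samples. They lie at chr17:34972157-34972306 for Hspa1a and chr17:34959239-34959388 for Hspa1b, both on the minus strand, and capitals mark the heat shock element core GAANNTTC, which begins at position −104 from the start in both.
Hspa1a: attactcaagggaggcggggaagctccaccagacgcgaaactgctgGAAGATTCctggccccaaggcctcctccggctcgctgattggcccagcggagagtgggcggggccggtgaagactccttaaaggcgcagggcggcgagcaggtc
Hspa1b: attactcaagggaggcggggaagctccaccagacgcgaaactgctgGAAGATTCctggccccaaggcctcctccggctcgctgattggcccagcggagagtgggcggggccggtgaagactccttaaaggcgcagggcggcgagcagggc

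Among the constitutive HSP70 genes, Hspa8, Hspa9 and Hspa4 varied little. Hspa8, the cognate HSP70 that does the cell's everyday folding, stood at 12.22, 12.15 and 12.12 in sham and at 12.20, 12.15 and 12.22 in castrated samples. Its difference was 0.029 (95% interval −0.18 to 0.24), and its other 3 probe sets differed by 0.00087 to 0.013. Hspa9, the mitochondrial HSP70 that pulls proteins through the inner membrane, differed by −0.11 (11.87, 11.92 and 12.10 against 11.85, 11.83 and 11.90). Hspa4, an HSP110-type exchange factor, differed by −0.083, and Hspa4l, its close relative, by −0.011. Hsph1, the heat-inducible HSP110, differed by 0.019 (8.59, 8.75 and 8.66 against 8.37, 8.87 and 8.82). Hspa2, an HSP70 needed in male germ cells, had the most negative difference of the family at −0.20 (6.06, 6.42 and 6.39 against 6.13, 6.11 and 6.02, limma adjusted p = 0.771). In Hspa2 sham sample 1 lay among the castrated samples. Hspa12a differed by 0.14, Hspa14 by 0.052 and the testis form Hspa1l by −0.054, while Hspa5, Hspa12b and Hspa13 are described with other groups. Hspa2 had the smallest adjusted p of these 14 genes.

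HSP90 was represented by Hsp90aa1, the stress-inducible cytosolic form, and Hsp90b1, the form of the endoplasmic reticulum known as GRP94. Hsp90aa1 (Entrez 15519) stood at 7.50, 7.75 and 7.73 in sham and at 7.63, 8.35 and 7.99 in castrated samples. Castrated samples 2 and 3 lay above all sham samples and castrated sample 1 did not. The difference was 0.33 (standard error 0.17, 95% interval −0.067 to 0.72, limma adjusted p = 0.752), and 0.15 without castrated sample 2 or 0.51 without castrated sample 1. Hsp90b1 differed by 0.073, with values of 10.28, 10.10 and 10.27 against 10.25, 10.25 and 10.37. HSP90 is known for holding steroid receptors, the androgen receptor among them, in a state ready to bind hormone.

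Of the 13 measured heat-inducible cytosolic members, 3 shared an order of samples, noted after the values were seen. From low to high, Hspa1a, Hspa1b and Hsp90aa1 all ran sham 1, castrated 1, sham 3, sham 2, castrated 3, castrated 2. Of all 22180 genes, 42 had that exact order, or 0.189%. The order was read from Hspa1a itself, and Hspa1b is not an independent reading of it, so only Hsp90aa1 is a separate match. In all, 8 members had castrated 1 and sham 1 as their lowest samples and castrated 2 as their highest, as did 1.87% of all genes. The others were Hsph1 and Hspa4l, and outside the inducible cytosolic genes Hspd1, Dnajc10 and Dnajc18. The probe set shared by Dnaja1 and a microRNA gene, where Dnaja1 is a cytosolic J-domain partner of HSP70, was highest in castrated sample 2 (7.13) and next in castrated sample 3 (7.04), with the others between 6.76 and 6.90. Dnajb1, the J-domain partner induced with Hspa1a in heat shock, did not follow this order. It stood at 6.48, 5.78 and 6.04 in sham and at 6.23, 6.32 and 6.24 in castrated samples, with sham sample 1 highest. Its difference of 0.17 was 0.36 without sham sample 1 and 0.0079 without sham sample 2. Over the 13 measured heat-inducible cytosolic members, with each gene centred, the median ran from −0.082 in sham sample 1 to 0.14 in castrated sample 2. Of these 13, 9 were higher and 4 lower in castrated samples, where 51.5% of all genes were lower, and the median difference was 0.020. Groups did not overlap for 0 of these 13, beside 12.8% of all genes. Sham sample 1 is also the sample with the highest immediate early genes and castrated sample 1 the one with the highest slow fibre genes.

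**Figure D2:**
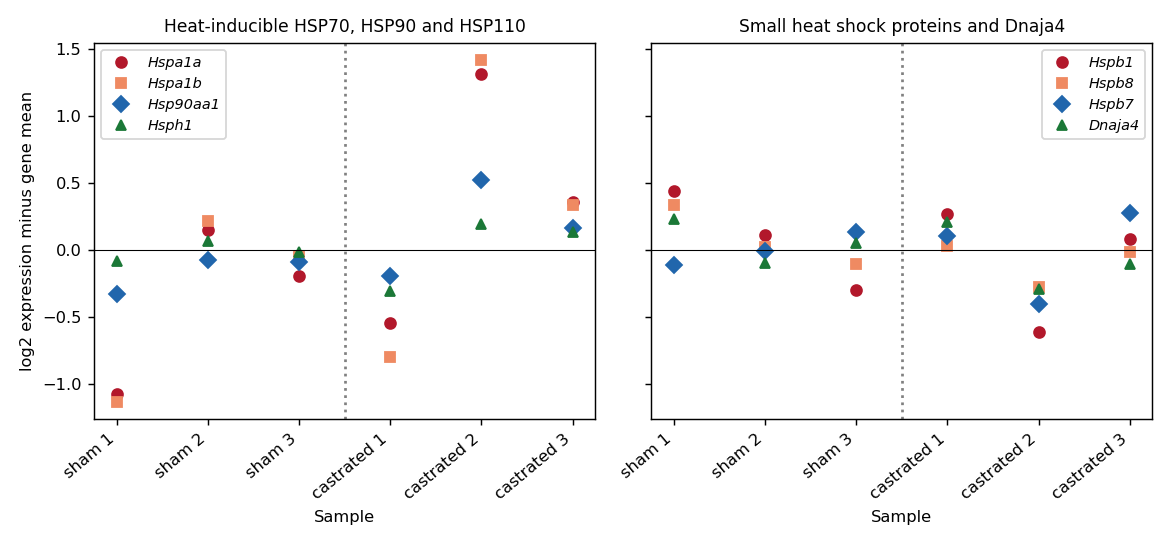
Log2 expression minus each gene's mean over the 6 arrays (y axis) by sample (x axis), 1 point per sample, for inducible HSP70, HSP90 and HSP110 genes (left) and for small heat shock proteins and Dnaja4 (right). Hspa1a and Hspa1b are lowest in sham 1 and castrated 1 and highest in castrated 2, whereas Hspb1, Hspb8, Hspb7 and Dnaja4 are lowest in castrated 2. Castrated 2 was the lowest sample for 15 of 67 members and 16.4% of all genes.

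Hspa1a and Hspa1b also stood out in spread between samples of the same group, while Hsp90aa1 lay at percentile 89.5 of spread. The pooled within-group SD was 0.93 for Hspa1b and 0.795 for Hspa1a, ranks 2 and 6 among 22180 genes. Among the 1250 genes with a mean log2 value over 9 they ranked 1 and 4. In all, 3 of 67 members lay above the 95th percentile of spread, no more than the share this limit sets. The third was Hspb1, at 0.42. By contrast 50 of 67 members lay below the median spread of all genes, and the median member lay at percentile 25.8. The members' median percentile of mean level was 82.2, and low spread was not particular to them. The median percentile of spread was 24.5 for HSP70 co-chaperones and 9.13 for the cytosolic chaperonin and prefoldin list. It was 79.3 for fibro-adipogenic markers, which also had high mean levels. Hspa5 had an SD of 0.033 and Hspa8 one of 0.045.

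**Figure D3:**
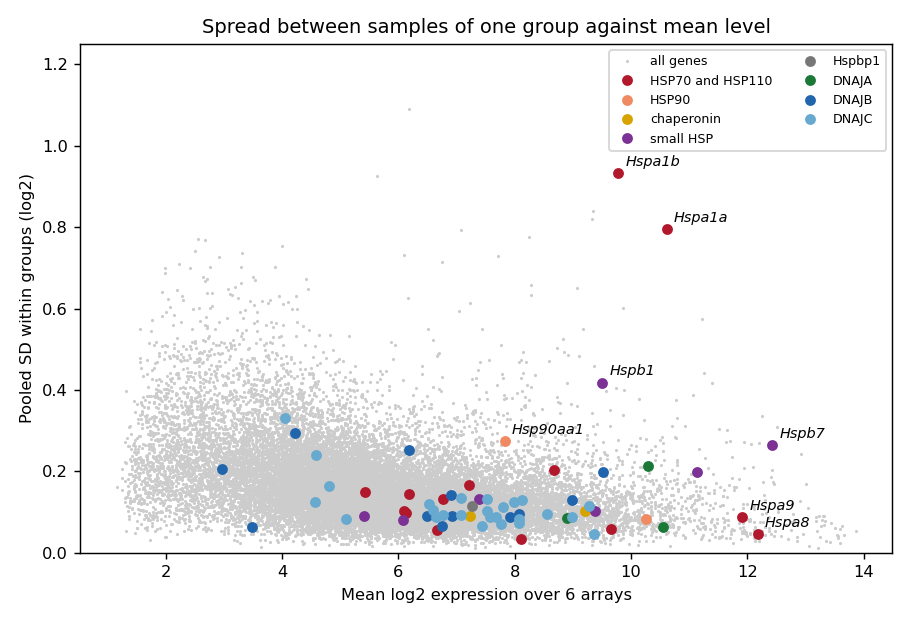
Pooled SD within groups on the log2 scale (y axis) against mean log2 expression over the 6 arrays (x axis) for all 22180 genes in grey and the 67 chaperone genes coloured by family. Hspa1b (0.93) and Hspa1a (0.795) lie above nearly all genes of similar signal, while Hspa8 (0.045) lies near the bottom.

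Small heat shock proteins had 7 measured genes, 3 higher and 4 lower in castrated samples, with a median difference of −0.012, and 0.0022 after quantile normalization. Hspb1 (HSP25 in mouse), which binds unfolded proteins and actin filaments, stood at 9.94, 9.62 and 9.21 in sham and at 9.78, 8.90 and 9.59 in castrated samples. Castrated sample 2 was lowest and sham sample 1 highest, 2.06-fold apart, and the groups overlap. Its difference was −0.17 (standard error 0.25, 95% interval −0.72 to 0.39), but 0.094 without castrated sample 2 and 0.0087 without sham sample 1. Hspb8, which works with Bag3 to clear damaged filamin from the Z-disc, stood at 11.48, 11.17 and 11.04 against 11.17, 10.87 and 11.13 and differed by −0.17 (limma adjusted p = 0.832). This became −0.047 when sham sample 1 was dropped, −0.078 when castrated sample 2 was and −0.27 when sham sample 3 was. Hspb1 and Hspb8 had an identical sample order, with castrated 2 lowest and sham 1 highest, noted after the values were seen. That order, read from Hspb1 itself, was held by 38 genes or 0.171% of the table. Other members matched in pairs too, Dnajc2 with Dnajc21 and Dnajc5 with Dnajc27, each pair in an order of its own. Castrated sample 2 was the lowest sample for 15 of 67 members, beside 16.4% of all genes. It was the highest sample for 14 members, beside 15.3% of all genes.

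Hspb7, the cardiovascular small heat shock protein that binds filamin, was also lowest in castrated sample 2, at 12.03. It read 12.54 and 12.71 in the other castrated samples and 12.32, 12.42 and 12.57 in sham samples. Its difference was −0.012. Hspb3, expressed in differentiated muscle, and Hspb6, which is phosphorylated by protein kinase A, differed by 0.0046 and 0.031. Hspb9, a testis form, had groups that did not overlap (6.06, 5.87 and 6.08 against 6.17, 6.17 and 6.16), a difference of 0.16 with a limma adjusted p of 0.783. Hspb11, a ciliary transport subunit rather than a true chaperone, differed by −0.052. Cryab, alpha-B-crystallin, is a small heat shock protein outside the symbols of this set. It stood at 12.30, 12.16 and 11.98 in sham and at 12.24, 11.75 and 12.11 in castrated samples, again lowest in castrated sample 2. The co-chaperone Bag3 was level at 9.99, 10.21 and 10.13 against 10.03, 10.15 and 10.14.

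The mitochondrial chaperonin Hspd1 and its lid Hspe1 are neighbours that share 1 promoter in opposite directions. Hspd1 differed by 0.064 (9.13, 9.16 and 9.25 against 9.12, 9.38 and 9.22) and Hspe1 by 0.017 (7.19, 7.16 and 7.32 against 7.22, 7.16 and 7.34). Neither group of values separates. The same 30 bases, at chr1:55088053-55088082, carry overlapping matches, on opposite strands, to a longer heat shock element, the core GAANNTTC followed by NNGAA. The element is shown in each gene's direction to make the sharing visible, with capitals for the matches.
Hspd1: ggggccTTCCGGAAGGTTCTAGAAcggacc
Hspe1: ggtccgTTCTAGAACCTTCCGGAAggcccc

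Of the J-domain genes, 27 of 41 had a lower mean in castrated samples, by small amounts, where 51.5% of all genes were lower. Their median difference was −0.059, at a median percentile of 82.2 of mean level. All genes at or above the 50th percentile of mean level had a median of −0.030. No J-domain gene passed the threshold. Class A, the closest kin of bacterial DnaJ, had 3 of 3 measured members lower with a median of −0.13. Dnaja1, a class A gene not analysed as a member, went the other way on its shared probe set, at 0.14. Dnaja3, the mitochondrial class A protein, stood at 8.95, 8.92 and 9.07 in sham and 8.83, 8.90 and 8.71 in castrated samples, without overlap (difference −0.17, limma adjusted p = 0.781). Its dimmer probe sets differed by 0.13 and 0.26, and the mean of the 3 probe sets by 0.074. Dnaja2, a cytosolic partner of Hspa8, differed by −0.11. Dnaja4 stood at 10.52, 10.19 and 10.34 against 10.50, 9.99 and 10.18 and differed by −0.13, with castrated sample 2 lowest as in Hspb1. Leaving out castrated sample 2 gave −0.012 and leaving out castrated sample 1 gave −0.26, with −0.044 and −0.21 when sham samples 1 and 2 were left out in turn.

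Class B J-domain genes were higher for 4 and lower for 8 of 12, with a median of −0.028. It was −0.0053 after quantile normalization, −0.015 after cyclic loess, −0.047 with centred arrays, −0.010 over the mean of probe sets and −0.0017 with either filter on dim genes. With a sample left out it ran from −0.067 (sham 1) to −0.0052 (castrated 2). Dnajb6, whose mutation causes a limb-girdle muscular dystrophy in humans, stood at 6.74, 6.71 and 6.70 against 6.66, 6.83 and 6.81 and differed by 0.051 (95% interval −0.17 to 0.27). Dnajb4 and Dnajb5, heat-inducible relatives of Dnajb1, differed by −0.019 and 0.020. Dnajb2, which hands ubiquitinated clients to the proteasome, differed by −0.15 (7.08, 7.05 and 6.88 against 6.83, 6.93 and 6.80, limma adjusted p = 0.799). Dnajb3, a testis gene at percentile 13.2 of mean level, had groups that did not overlap at a difference of −0.12. Dnajb12, a membrane protein of the endoplasmic reticulum, differed by 0.068. Dnajb7, Dnajb13 and Dnajb14 lay between −0.075 and −0.037, although a dim second probe set of Dnajb14 differed by 0.31.

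Class C, defined by the J domain alone, had 10 genes higher and 16 lower of 26, with a median of −0.057. That median was −0.019 after quantile normalization, −0.022 after cyclic loess, −0.014 with castrated sample 1 left out and −0.025 with sham sample 2 left out. Dnajc22 had the smallest p of all members. It stood at 4.54, 4.26 and 4.48 in sham and at 4.82, 4.62 and 4.71 in castrated samples, with no overlap. The difference was 0.29 (standard error 0.11, 95% interval 0.038 to 0.55, limma adjusted p = 0.685). Dnajc6, auxilin, which uncoats clathrin vesicles with HSP70, stood at 4.94, 4.9996 and 4.90 against 4.86, 4.42 and 4.74, again with no overlap. Its difference was −0.28 (limma adjusted p = 0.710), and −0.15 without castrated sample 2. Dnajc22 and Dnajc6 lay at percentiles 30.9 and 36.1 of mean log2 signal over all genes, and whether they were above background was not tested.

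Other class C genes differed less. Dnajc27, a small GTPase with a J domain, differed by −0.17 (8.98, 9.06 and 9.17 against 8.98, 8.89 and 8.82). Dnajc7, which binds both HSP70 and HSP90, had groups that did not overlap (9.43, 9.355 and 9.46 against 9.29, 9.353 and 9.29) at a difference of −0.10 with a limma adjusted p of 0.848. Dnajc14 likewise did not overlap, at −0.14. Dnajc5, the cysteine string protein of synaptic vesicles, differed by −0.10 and Dnajc15, at the mitochondrial import motor, by −0.12. Dnajc21, which acts in ribosome maturation, differed by −0.061. Apart from Dnajc3, the other 17 class C genes, with Dnajc24 lowest and Dnajc9 highest, lay between −0.13 and 0.14, and their groups overlapped. The HSP70 exchange factor Hspbp1 differed by −0.013. Hspa12b, an endothelial HSP70 relative, also had groups that did not overlap, at −0.068.

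**Figure D4:**
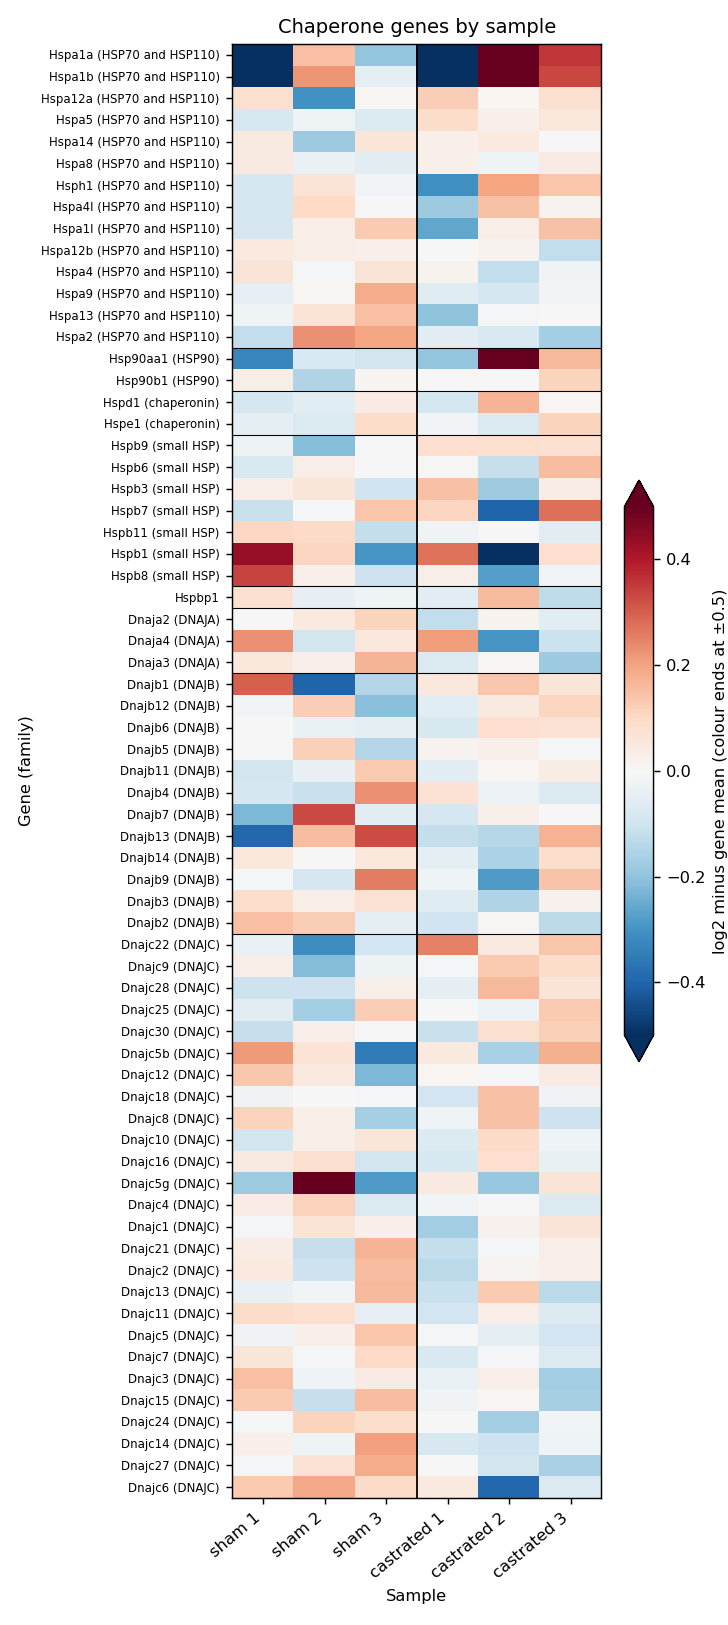
Log2 expression minus each gene's mean (colour, ending at ±0.5) for the 67 chaperone genes (rows, by family and then by difference) in the 6 samples (columns, sham left of the line). Hspa1a, Hspa1b and Hsp90aa1 vary strongly among samples, and most other rows stay pale.

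Chaperones of the endoplasmic reticulum stayed within narrow bounds. Of 13 measured members 6 were higher and 7 lower, with a median difference of −0.0017. Hspa5 (BiP), the HSP70 of this compartment which also holds the stress sensors there inactive, stood at 8.03, 8.08 and 8.04 in sham and at 8.20, 8.13 and 8.16 in castrated samples. These groups did not overlap, but the difference was 0.12 (95% interval −0.090 to 0.32, limma adjusted p = 0.824). That interval rests on limma's standard error of 0.091, drawn toward the variance of all genes, beside a within-group SD of 0.033 for Hspa5. Its J-domain partners differed by −0.11 for Dnajb9, which restrains the sensor IRE1, by −0.0017 for Dnajb11 and by −0.11 for Dnajc3, which binds the kinase PERK. Hspa13, a microsomal relative of HSP70, differed by −0.13. In the promoter windows the endoplasmic reticulum stress element, CCAAT and CCACG with 9 bases between them, searched on both strands, was found in 3 of 55 members with a window, namely Hspa5, Hsp90b1 and Dnajc3, and in 0.137% of all genes. Hsp90b1 has a pair of matches, beginning at −212 and −107. A match of each gene, for Hsp90b1 the one farther from the start, is shown because these genes share the element while their differences were 0.12, 0.073 and −0.11. The matches shown lie at chr2:34772020-34772049 on the plus strand, chr10:86705632-86705661 on the minus strand and chr14:118937822-118937851 on the plus strand, and capitals mark the match.
Hspa5: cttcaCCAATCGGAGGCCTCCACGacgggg
Hsp90b1: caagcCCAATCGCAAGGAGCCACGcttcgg
Dnajc3: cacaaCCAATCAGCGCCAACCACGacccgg

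Heat shock element letters were searched in the same windows, each 250 bases before to 50 after a start. The core GAANNTTC, which reads the same on both strands, was found for 13 of 55 members and 9.04% of all genes. The longer element, that core followed by NNGAA and searched on both strands, was found for 4 members (Hspd1, Hspe1, Hsph1 and Dnajb6) and for 0.662% of all genes. The tail-to-tail core TTCNNGAA, also the same on both strands and part of the longer element, was found for 6 members and 9.60% of all genes. Genes with several starts have several windows. The element of androgen and glucocorticoid receptors, AGAACA and TGTTCT with 3 bases between them, was found for 0 of 55 members and 0.0111% of all genes. A match describes letters and was not tested as a binding site. Hspb1 carries the core at 2 places within 30 bases (chr5:135887801-135887830, plus strand) and Dnaja4 also at 2 places, beginning at −90 and −52, of which the first is shown (chr9:54699458-54699487, plus strand). These stretches are shown because both genes were lowest in castrated sample 2, where Hspa1a, with its own core, was highest.
Hspb1: aGAAGTTTCcagatgggggcaGAACCTTCc
Dnaja4: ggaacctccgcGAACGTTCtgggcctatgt

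Members grouped by place or tissue gave medians close to 0. The 9 mitochondrial members had 4 higher and 5 lower (median −0.055), the 9 muscle-rich members 4 higher and 5 lower (median −0.012) and the 8 testis-rich members 2 higher and 6 lower (median −0.053). Per sample, with genes centred, the muscle-rich median was −0.18 in castrated sample 2 while the other samples lay between −0.045 and 0.071.

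The partners of these chaperones, from lists of the wider pathway, did not pass the threshold either, with 0 genes at an adjusted p under 0.05 in limma in each of the 7 lists. Of 15 measured heat shock factor pathway genes 5 were higher and 10 lower. Hsf2, a heat shock factor active in development and under proteotoxic stress, stood at 8.69, 8.44 and 8.64 in sham and at 8.21, 8.21 and 8.30 in castrated samples, without overlap. Its difference was −0.35 (standard error 0.11, 95% interval −0.58 to −0.11, limma adjusted p = 0.634). Hsf2 was the only gene of the 15 at an unadjusted p under 0.05, where the share over all genes was 7.13%. Serpinh1, the collagen chaperone HSP47, differed by 0.38 (7.73, 7.49 and 7.12 against 7.76, 8.20 and 7.52, limma adjusted p = 0.750), and the tendon markers, uneven between these samples, were also mostly higher in castrated ones. Their part in the value was not tested.

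Among HSP70 co-chaperones 16 of 19 had lower means, where 51.5% of all genes did. Their median was −0.059, and 0 had an unadjusted p under 0.05. Their smallest p belonged to Ttc1, a tetratricopeptide adaptor (−0.21, no overlap, limma adjusted p = 0.709), and Ubxn1 (−0.20). Of HSP90 co-chaperones 16 of 23 were lower, with a median of −0.043 and 0 at an unadjusted p under 0.05. Among them Unc45a, a general myosin chaperone, differed by −0.25 and Sugt1 by 0.21, while Unc45b, the myosin chaperone of muscle, differed by 0.0064, Stip1, which bridges HSP70 and HSP90, by 0.091 and Fkbp4, a steroid receptor partner, by −0.091. The cytosolic chaperonin and prefoldin list was lower for 8 of 14 with a median of −0.018 and 0 at an unadjusted p under 0.05, including Pdcl3 (−0.16) and Pfdn2 (−0.20). The list of small heat shock partners and aggregate handling was lower for 8 of 11 with a median of −0.11 and 0 at an unadjusted p under 0.05, including Sqstm1, the autophagy receptor p62 (−0.15), and the disaggregase Clpb (−0.15).

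In the list of mitochondrial chaperones and proteases 11 of 12 were lower (median −0.13), where 51.5% of all genes were. The list lay at a median percentile of 87.7 of mean level. All genes at or above the 50th percentile of mean level had a median difference of −0.030. In the list 2 genes had an unadjusted p under 0.05, both lower, beside 3.51% of all genes lower at that p. Lonp1, the matrix protease, stood at 8.26, 8.10 and 8.23 in sham and at 7.90, 7.94 and 7.98 in castrated samples, a difference of −0.26 (limma adjusted p = 0.671). Hscb, the J-domain protein of iron-sulfur cluster assembly that carries no Dnaj symbol, differed by −0.24 (limma adjusted p = 0.685). Both had groups that did not overlap. Of 21 genes of the endoplasmic reticulum list 13 were lower, with a median of −0.022. At an unadjusted p under 0.05 there was 1 gene, where the share over all genes was 7.13%. That gene was Edem1, which sends misfolded glycoproteins to degradation, at −0.39 (7.03, 6.73 and 6.93 against 6.57, 6.27 and 6.69, limma adjusted p = 0.668). Derl3 differed by −0.18.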

How the data were processed

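RNA from 6 tibialis anterior samples, 3 per group by title, was labelled from 300 ng for whole-transcript arrays, per the labels' protocols. The authors deposited 1 table of normalized log2 signals, a value for every probe set and array. The submitters' processing notes name Partek, and how it normalized is not given in the sources used here. The number of arrays limits the precision. Of 41345 probe sets, 23521 name 1 gene, 1814 several and 16010 none. Symbols were updated by Entrez identifier, which matched for 23328. Each gene kept its probe set with the highest mean, with no filter on dim genes.

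A linear model of castrated minus sham was fitted to every gene (limma 3.58.1 with eBayes, R 4.3.3), with Benjamini-Hochberg adjustment over 22180 genes and a threshold of 0.05, and was checked on simulated data. Each label names a single mouse, and p-values rest on the spread among these 6 samples, with each gene's variance drawn by eBayes toward that of all genes. Members and lists were chosen with earlier results of these data known. Named genes are members past the threshold, the 3 smallest p and 2 highest means per family, a preset list, and 2 genes per pathway list with a preset few, of which Stub1 was not analysed here. Non-overlapping members and those singled out for sample order or spread were added after values were seen. Alternatives changed normalization, dim filter, probe set rule, variance prior, block, threshold and samples. Promoter windows are RefSeq's, GRCm38.p6, and 55 of 67 members matched by symbol. Figures used matplotlib 3.10.9.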

Additional observations from a re-analysis of the deposited data

How the results depend on the processing

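Across the 15 other settings and the thresholds of 0.1 and 0.2, 0 members passed, and the smallest adjusted p of a member was 0.516. Over all genes the count was 9 and 16 with the 25th and 50th percentile filters, 10 with a trended robust prior and 0 without variance moderation. Members at an unadjusted p under 0.05 numbered 3 after quantile or cyclic loess normalization (6.90% and 6.94% of all genes fitted). They numbered 2 with centred arrays, the 25th percentile filter or no moderation (7.04%, 8.35% and 6.37% of all genes fitted). The count was 0 with the 50th percentile filter (9.38%) and 0 to 4 with a sample left out (5.98% to 6.90%). With a sample left out, 11 to 22 members had groups that did not overlap, since fewer samples overlap less (21.9% to 24.1% of all genes). With the replicate number as a block, 4 members had an unadjusted p under 0.05, where the share over all genes was 7.56%. They were Hspa1a (limma adjusted p = 0.559), Hspa1b, Dnajc22 and Hsp90aa1, and no member passed the threshold. Same-numbered samples deviated together by correlations of only 0.0759, 0.0325 and 0.0473, so the numbers were not taken as pairs, although each sample correlated best with its own number.

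Medians were 0.0022 for the members and −0.019 for class C after quantile normalization, and −0.076 and −0.022 for class C with centred arrays and cyclic loess. With a sample left out they ran from −0.047 to −0.0054 for the members, −0.059 to 0.056 for HSP70 and −0.068 to 0.094 for small heat shock proteins. For HSP90 the range was 0.12 to 0.30 and for the chaperonin 0.018 to 0.083. The J-domain ranges were −0.19 to −0.11 for class A, −0.067 to −0.0052 for class B and −0.070 to −0.014 for class C.

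Of 58 named genes, 41 kept their direction in every setting run. After quantile normalization and cyclic loess Bag3 was 0.059 and 0.026, Dnajb11 0.044 and 0.040, and Dnajb4 0.031 and 0.017. After quantile normalization Hspb7 was 0.0022, and over the mean of its probe sets Dnaja3 was 0.074. With centred arrays Hspb3 was −0.014, Hspe1 −0.0022, Hsph1 −0.000125 and Unc45b −0.012. With a sample left out the ranges were −0.065 to 0.043 for Bag3, −0.21 to 0.029 for Cryab, −0.048 to 0.064 for Dnajb11, −0.019 to 0.15 for Dnajb12, −0.080 to 0.089 for Dnajb4, −0.049 to 0.085 for Dnajb5, −0.21 to 0.0049 for Dnajb9, −0.13 to 0.0077 for Dnajc21, −0.36 to 0.094 for Hspb1, −0.068 to 0.094 for Hspb3, −0.037 to 0.096 for Hspb6, −0.15 to 0.19 for Hspb7, −0.0053 to 0.12 for Hspd1, −0.035 to 0.066 for Hspe1, −0.075 to 0.18 for Hsph1 and −0.13 to 0.12 for Unc45b. The causes were not tested.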
